A study of Mus musculus with 12 samples.

Results

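Both groups of mice on a steatohepatitis-inducing diet were compared with mice on a control diet by RNA sequencing of liver. The comparison set 8 libraries on the diet for metabolic dysfunction-associated steatohepatitis (MASH) against 4 control libraries, which together are all 12 libraries of the series. The 8 libraries were 4 from mice given vehicle (MD) and 4 from mice given cinnabarinic acid (MD+CA), and the diet effect was the mean of both group means less the control mean. All mice were labelled as males carrying floxed alleles of the aryl hydrocarbon receptor gene (AhR fl/fl), with no Cre named, and entered the study at 8 weeks of age for 20 weeks of feeding. Control mice (CD) ate a diet with 10% of its energy from fat and matching sucrose. The MASH diet took 40% of its energy from fat and 20% from fructose and held 2% cholesterol. MD mice received vehicle containing 0.2% DMSO and MD+CA mice received 12 mg/kg cinnabarinic acid, each into the peritoneum 3 times a week. Injections are described for the MASH diet mice only, so diet and injection cannot be told apart in these values. The labels do not say that the libraries of a group came from separate mice or at what time of day livers were taken, and p-values may therefore measure only the spread between these libraries.

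The liver turns surplus carbohydrate into fatty acids by de novo lipogenesis, a route that draws on NADPH from the pentose phosphate pathway and is switched on by insulin, fructose and the factors SREBP-1c, LXR and ChREBP. Dietary cholesterol lowers the liver's own cholesterol synthesis through the SREBP-2 feedback, and unsaturated fat in the diet is known to lower lipogenic transcripts. In steatohepatitis, fat-laden hepatocytes are joined by activated resident macrophages (Kupffer cells), recruited macrophages and matrix-producing stellate cells. Cinnabarinic acid is a tryptophan metabolite of the kynurenine pathway that binds the aryl hydrocarbon receptor.

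Libraries held between 9089586 and 14492587 reads assigned to transcripts, and 13631 of 56065 genes had enough reads to be tested. None of 6 library measures differed between the 8 MASH diet and 4 CD libraries (exact two-sided permutation tests, lowest adjusted p = 0.582, where 0.00202 is the smallest raw p that 495 assignments allow). Of assigned reads, 6.21 ± 0.395% (SD, n = 4) came from mitochondrially encoded genes in CD libraries, against 10.9 ± 4.78% for MD and 6.29 ± 1.38% for MD+CA, and MD replicate 2 was the highest at 17.5%. Hepatocyte transcripts were abundant throughout, with at least 163127 reads of albumin (Alb) per library, while Ins2, Umod and Ly6g, markers of pancreatic islets, kidney and neutrophils, had 0 reads in 12 of 12 libraries. The sex label was not borne out: Xist, transcribed from the inactive X chromosome of females, had 5122 to 12865 reads in every library, and the Y-linked genes Ddx3y, Kdm5d, Uty and Eif2s3y had 0 reads in 12 of 12. The libraries are therefore described by diet only. Because whole liver was sequenced, fewer cells of a type and less RNA per cell cannot be told apart.

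Few genes passed the test, and 15 of the 16 that did were lower. Of the 13631 genes, 16 passed (0.117%), of which 1 was higher (0.00734%) and 15 were lower (0.11%) on the MASH diet (edgeR's quasi-likelihood test, Benjamini-Hochberg adjusted p under 0.05). All 16 are protein-coding. In 11 of them (0.0807% of all genes) every MASH diet library lay outside the range of the 4 CD libraries, 1 above (0.00734%) and 10 below (0.0734%). Over all genes, without regard to the test, 88 lay wholly above CD (0.646%) and 91 wholly below (0.668%), 179 in all (1.31%). An unadjusted p under 0.05 was reached by 1574 genes (11.5%), 848 higher (6.22%) and 726 lower (5.33%). Over all genes 7293 had a positive and 6338 a negative log2 fold change, and the median log2 fold change of all genes was 0.03. The number of passing genes rested on single libraries. Among CD libraries, leaving out replicate 4 gave 1 gene, replicate 2 gave 2, replicate 1 gave 6 and replicate 3 gave 34. Leaving out either of MD replicates 1 and 4 gave 5. Among MD+CA libraries, leaving out replicate 2 gave 6, replicate 1 gave 7 and replicate 4 gave 50. With DESeq2 192 genes passed, 84 of them higher, and with limma voom 77 passed, 26 of them higher, so lower genes made up a smaller share there. Of 12 fits that left out 1 library, the call held in 12 for Smad9, 11 for Lepr, 10 each for Pdzk1ip1 and G6pdx, 9 for Rdh9, 7 for Hsd3b5, 6 for Plekhd1, 5 for Rims4, 4 each for Elovl6 and Saa3, 3 each for Pgap1, Cnmd and Pnpla3, 2 each for Acp3 and Fabp5 and 1 for Nat8f7.

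Taken against CD on its own, MD alone gave 12 passing genes (0.088%), 6 higher (0.044%) and 6 lower (0.044%). MD+CA alone gave 72 (0.528%), 30 higher (0.22%) and 42 lower (0.308%). These contrasts share the CD libraries. Genes that passed in both numbered 2 lower (0.0147%), Smad9 and G6pdx, and 0 higher (0.0%). Of the 16 genes, 4 passed in MD against CD and 10 in MD+CA against CD, both counts including Smad9 and G6pdx. In neither contrast did 4 pass, and all 16 had the same sign in both. MD+CA and MD were compared directly as well, and 369 genes differed (2.71%), 145 higher (1.06%) and 224 lower (1.64%) with the compound. Of the 16 genes, 3 differed between them, Pdzk1ip1, Cnmd and Nat8f7. The other 13 did not pass that test, which does not show that the diet effect was equal with and without the compound.

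**Figure D1:**
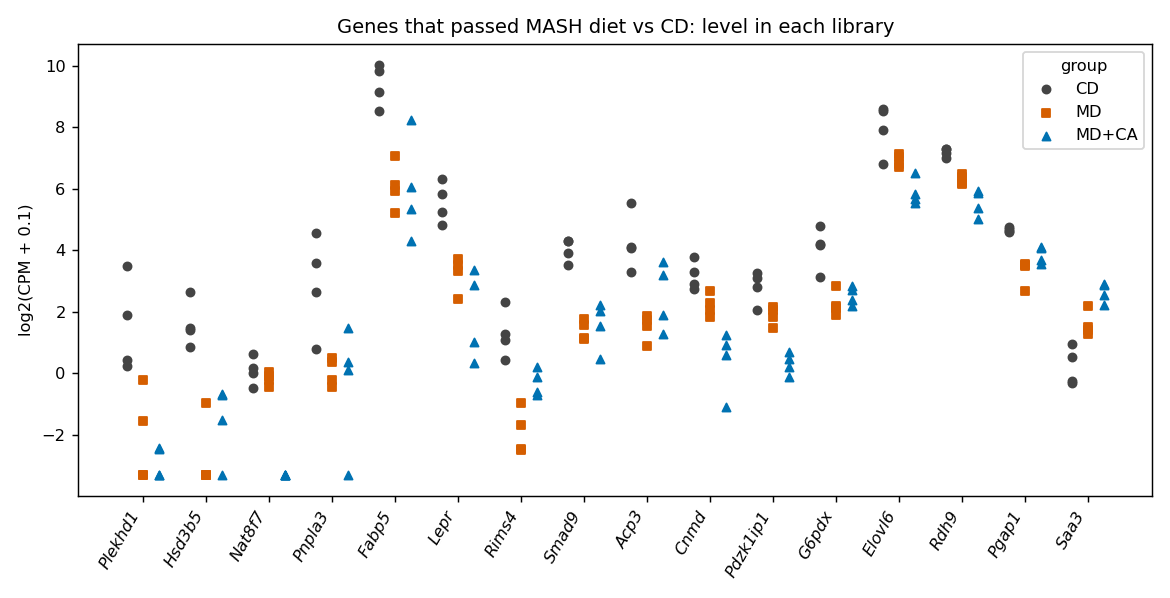
Level of each of the 16 genes that passed MASH diet vs CD, as log2(CPM + 0.1) on the vertical axis, with 1 point per library (circles CD, squares MD, triangles MD+CA). Saa3 is the only gene of the 16 with all 8 MASH diet points above CD, and Smad9, G6pdx, Lepr, Rdh9, Pgap1, Fabp5, Cnmd, Rims4, Hsd3b5 and Plekhd1 have all 8 below. Points on the lowest line are libraries with 0 reads.

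Smad9 (ENSMUSG00000027796.3) had the smallest p of all genes. It encodes a receptor-activated SMAD that carries bone morphogenetic protein (BMP) signals to the nucleus. Levels are given throughout as TMM-scaled CPM, the reads of a gene relative to the TMM-scaled total of its library over the tested genes. Its CPM was 19.7, 19.4, 11.4 and 15 in CD replicates 1 to 4, 2.87, 3.26, 2.10 and 2.07 in MD and 1.29, 4.01, 2.79 and 4.58 in MD+CA. The lowest CD library lay well above the highest MASH diet library. The log2 change was -2.52 ± 0.26 (SE; adjusted p = 0.00102), with -2.67 in MD and -2.36 in MD+CA. MD+CA differed from MD by 0.31 (95% interval -0.41 to 1.03). Its call held in 12 of 12 fits that left out 1 library, with log2 fold changes between -2.66 and -2.39 over all settings run. It did not hold without MD replicates 1, 2 and 4, where a single MD library remained (adjusted p = 0.216).

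Of 27 tested genes for BMP and transforming growth factor-beta ligands, receptors, SMADs and targets, Smad9 was the only member that passed, and the list's median log2 fold change was -0.04. Of the 27, 13 had a positive and 14 a negative log2 fold change. An unadjusted p under 0.05 was reached by 1 upward and 3 downward, where 6.22% and 5.33% of all genes did so. Id4, an inhibitor of differentiation transcribed in response to BMPs, had a log2 fold change of -1.11 ± 0.36 (adjusted p = 0.253). Id1, the best known BMP target of the family, was at -0.86 ± 0.36 (adjusted p = 0.388). The iron hormone Hamp, which hepatocytes make in response to BMP, was at -0.53 (adjusted p = 0.56).

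G6pdx (ENSMUSG00000031400.11) encodes glucose-6-phosphate dehydrogenase, the enzyme that commits glucose to the pentose phosphate pathway and yields NADPH. Its CPM was 18.1, 18.5, 8.67 and 27.9 in CD, compared with 4.20, 4.48, 6.99 and 3.58 in MD and 4.50, 7.04, 5.06 and 6.48 in MD+CA. CD replicate 3 was the lowest CD library and still exceeded all 8 MASH diet libraries. Its fold change on the log2 scale was -1.79 ± 0.26 (adjusted p = 0.0135), with -1.93 in MD and -1.66 in MD+CA, and MD+CA differed from MD by 0.26 (95% interval -0.42 to 0.94). The call was lost without CD replicate 2 (adjusted p = 0.0524) and without CD replicate 4 (0.0816). Among 12 tested genes of NADPH supply it alone passed, 9 had a negative log2 fold change and the list median was -0.39. Of all genes, 6338 of 13631 were negative. Me1, the cytosolic malic enzyme, was at -1.29 ± 0.36 and Pgd, the next dehydrogenase of the pathway, at -0.50 ± 0.18 (adjusted p = 0.192 and 0.301). Taldo1 and Pgls, later and middle steps, were at 0.37 and 0.21 and did not pass.

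Upstream sequence of 3 of the lower genes is shown so that the letters behind a motif count can be seen. Each is the 250 bases before the RefSeq transcription start in build GRCm38.p6, on the plus strand, in the order Smad9 (chr3:54755332-54755581), Rdh9 (chr10:127776155-127776404) and Pnpla3 (chr15:84167566-84167815). Capitals mark the E-box CACGTG, the CCAAT motif, the GC box GGGCGG or the sterol regulatory element TCACNCCAC, on either strand.
Smad9: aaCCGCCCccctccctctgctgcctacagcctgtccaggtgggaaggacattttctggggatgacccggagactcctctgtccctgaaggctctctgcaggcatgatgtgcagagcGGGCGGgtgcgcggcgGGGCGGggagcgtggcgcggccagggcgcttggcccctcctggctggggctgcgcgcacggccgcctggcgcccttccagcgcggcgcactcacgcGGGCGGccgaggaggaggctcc
Rdh9: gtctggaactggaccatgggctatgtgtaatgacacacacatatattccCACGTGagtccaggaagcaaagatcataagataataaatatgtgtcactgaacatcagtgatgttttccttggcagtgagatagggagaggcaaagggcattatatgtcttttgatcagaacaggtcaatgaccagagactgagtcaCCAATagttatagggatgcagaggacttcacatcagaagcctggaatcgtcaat
Pnpla3: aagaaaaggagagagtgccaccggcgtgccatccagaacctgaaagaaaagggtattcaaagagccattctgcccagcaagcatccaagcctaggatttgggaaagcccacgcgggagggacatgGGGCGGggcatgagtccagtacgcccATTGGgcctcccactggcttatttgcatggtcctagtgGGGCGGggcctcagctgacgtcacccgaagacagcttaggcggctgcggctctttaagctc
The Smad9 sequence holds 4 GC boxes and none of the other motifs, that of Rdh9 holds 1 E-box and 1 CCAAT, and that of Pnpla3 holds 2 GC boxes and 1 CCAAT. Over all 32851 promoters of the table, 6.02% held the E-box, 1.05% the sterol element, 33.9% CCAAT and 32.7% the GC box. Among promoters of tested genes the shares were 8.04, 1.08, 35.3 and 55%. Among 13 promoters matched to 12 of the 15 lower genes, 2 held the E-box, 0 the sterol element, 5 CCAAT and 5 the GC box. A match describes the letters and is not evidence of a bound site.

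De novo lipogenesis was the gene group with the lowest median on the MASH diet among the 50 lists described. Of its 20 tested members, 18 had a negative log2 fold change, 13 had an unadjusted p under 0.05 downward and 2 upward, and 2 passed, both lower. Over all genes 5.33% had such a p downward, 6.22% upward and 0.11% passed lower. The list median was -1.26 against 0.03 for all genes, with -1.01 in MD and -1.33 in MD+CA. This list was drawn up with earlier results of these data known, so its direction is a description.

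Elovl6 (ENSMUSG00000041220.11) elongates palmitate to stearate. Its CPM was 240.1, 367, 112 and 390.1 in CD, against 104.8, 111, 139 and 131 in MD and 46.7, 50.6, 56.7 and 90.4 in MD+CA. CD replicate 3 fell among the MD libraries, and the other 3 CD libraries lay above every MASH diet library. The change on the log2 scale was -1.69 ± 0.27 (adjusted p = 0.0244), with -1.19 in MD and -2.18 in MD+CA. Pnpla3 (ENSMUSG00000041653.6) encodes a lipid droplet protein that acts on triglycerides and is induced by feeding. Its CPM was 12.0, 23.8, 1.61 and 6.12 in CD, compared with 1.19, 1.32, 0.751 and 0.637 in MD and 1.19, 0.982, 0 and 2.68 in MD+CA. It spread widely within CD, where replicate 3 again lay within the MASH diet range. The log2 fold change was -3.28 ± 0.58 (adjusted p = 0.0426).

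Scd1, the desaturase that makes oleate, just missed the threshold. Its CPM was 10668, 14346, 5339 and 12166 in CD, against 964, 887, 3856 and 4432 in MD and 1615, 2469, 1738 and 3114 in MD+CA, with no overlap between CD and the MASH diet. MD split into a low pair, replicates 1 and 2, and a higher pair, replicates 3 and 4. The log2 change was -2.16 ± 0.40 (adjusted p = 0.0564), and without CD replicate 3 it was -2.38 and passed (0.029). Acaca, the acetyl-CoA carboxylase that makes malonyl-CoA, and Pklr, the liver pyruvate kinase, also lay wholly below CD in all 8 libraries, at -1.48 ± 0.30 and -1.33 ± 0.28 (adjusted p = 0.0879 for each). Fasn, which joins malonyl units into palmitate, was at -1.54 ± 0.38, Acly, which supplies cytosolic acetyl-CoA, at -1.47 ± 0.34 and Acss2, which makes it from acetate, at -1.67 ± 0.38. None of those 3 passed (adjusted p = 0.144, 0.131 and 0.129).

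The gene of the regulator itself had a value near 0, with reads summed over its transcripts, so SREBP-1c was not measured apart. Srebf1, whose SREBP-1c product drives lipogenic genes, had CPM of 139, 150.3, 74.2 and 124 in CD, compared with 172, 173, 95 and 90.3 in MD and 137, 90.4, 85.7 and 129 in MD+CA, and a log2 fold change of -0.01 ± 0.25 whose sign changed between settings. Mlxipl, encoding ChREBP, was at -0.32 ± 0.26 (adjusted p = 0.638). Elovl3, a fatty acid elongase, and Insig2, a retention factor for SREBPs, were the only positive members, at 1.72 and 0.49, and neither passed. The delta-5 and delta-6 desaturases Fads1 and Fads2 were at -0.21 and -0.10 and did not pass.

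CD replicate 3 stood apart from the other CD libraries in this group. Per library, the median over the 20 members of log2((CPM + 1) / (CD mean + 1)) was 0.15, 0.28, -0.85 and 0.15 in CD, against -1.02, -1.31, -0.83 and -0.70 in MD, and -1.96, -1.57, -1.57 and -0.54 in MD+CA. CD replicate 3 was thus as low as several MASH diet libraries, and MD+CA replicate 4 was the highest of the 8. Without CD replicate 3 the list's median log2 fold change was -1.50, and 34 genes passed over all genes, 14 of the 16 among them.

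**Figure D2:**
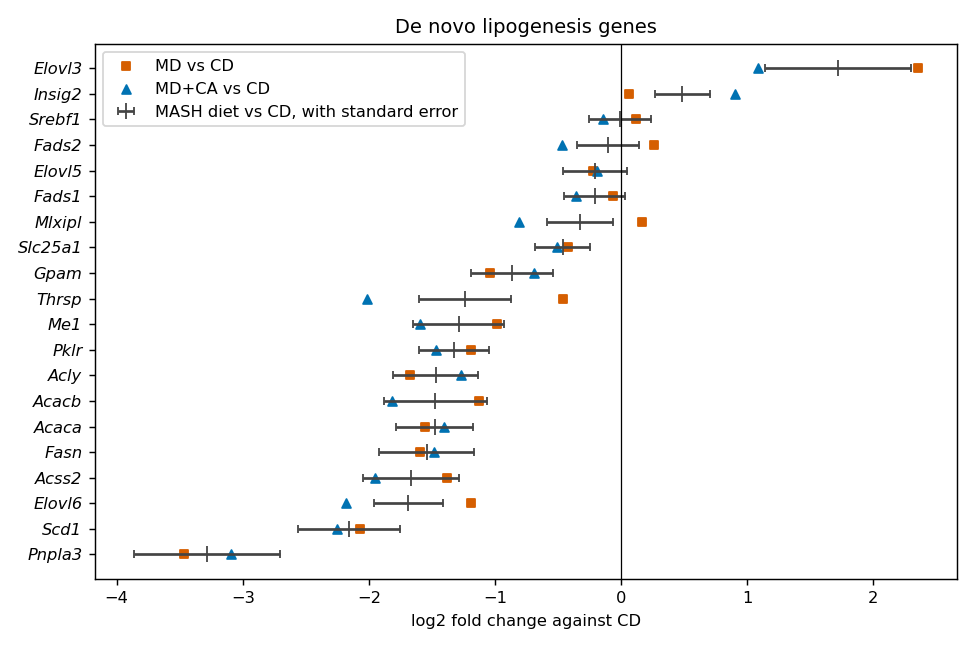
Log2 fold change against CD (horizontal axis) of the 20 tested genes of de novo lipogenesis, with squares for MD, triangles for MD+CA and dark bars for both MASH diet groups with their standard error. Genes from Pnpla3 at -3.28 up to Gpam lie to the left of 0 in both diet groups, and Srebf1 lies at 0.

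Genes of cholesterol synthesis and uptake had a smaller negative median, and none passed. Of 25 tested members 19 were negative and 6 positive, 0 passed and 9 had an unadjusted p under 0.05, all 9 downward. Of all genes 6338 of 13631 were negative and 5.33% had such a p downward. The list median was -0.32, with -0.40 in MD and -0.27 in MD+CA. It was -0.18 without CD replicate 2. Per library, the median relative to CD was -0.52 in CD replicate 3, below 3 of the 4 MD libraries, and 0.20 in MD+CA replicate 4, so the groups overlapped. Pmvk, the phosphomevalonate kinase of the mevalonate pathway, was nearest to passing. Its CPM was 90.1, 109, 50.8 and 92.3 in CD, against 35.0, 23.4, 45.2 and 41.9 in MD and 32.8, 34.9, 50.0 and 47.5 in MD+CA. Every MASH diet library lay below CD, though only just below CD replicate 3, and the log2 fold change was -1.14 ± 0.22 (adjusted p = 0.0583). Lss, which closes the sterol rings, was at -0.81 ± 0.24 and Stard4, a sterol carrier, at -0.74 ± 0.20 (adjusted p = 0.207 and 0.179). Srebf2, the regulator of the pathway, was at 0.03. The list of liver X receptor (LXR) targets for sterol efflux had a median of -0.22, or -0.11 without CD replicate 3, with 0 of 17 passing.

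Fabp5 (ENSMUSG00000027533.11), a cytosolic carrier of fatty acids, had CPM of 566, 1058, 369.5 and 912 in CD, compared with 60.3, 37.2, 69.3 and 135 in MD and 19.7, 40.8, 301 and 66.8 in MD+CA. No MASH diet library reached the lowest CD value, and MD+CA replicate 3 was far above the other 3 of its group. Its fold change on the log2 scale was -3.02 ± 0.54 (adjusted p = 0.0453), with -3.27 in MD and -2.76 in MD+CA. It also stands in the marker list of recruited and lipid-associated macrophages, where it moved against the list's median of 0.73. It was the only 1 of 20 tested genes of fatty acid uptake and triglyceride synthesis to pass. Acsl5, an acyl-CoA synthetase, lay below CD in all 8 libraries at -0.82 ± 0.26 (adjusted p = 0.246).

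Lepr (ENSMUSG00000057722.18) encodes the leptin receptor, which also binds circulating leptin in a shed form made largely by liver. Its CPM was 38.0, 28.3, 57.0 and 80.4 in CD, against 13, 9.98, 11.3 and 5.17 in MD and 1.93, 1.15, 10.3 and 7.18 in MD+CA. The lowest CD library exceeded the highest MASH diet library. The change on the log2 scale was -2.85 ± 0.42 (adjusted p = 0.016), with -2.37 in MD and -3.34 in MD+CA, and MD+CA differed from MD by -0.98 (95% interval -2.11 to 0.16). The call was lost only without CD replicate 4 among fits that left out 1 library (adjusted p = 0.0816). Of 17 tested genes of the insulin and IGF axis, where it was listed, it alone passed, and the median was -0.25. Irs1, an adaptor of the insulin receptor, was at -0.57 ± 0.17 (adjusted p = 0.207).

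Rdh9 (ENSMUSG00000056148.9), a retinol dehydrogenase of a cluster of similar genes, and Pgap1 (ENSMUSG00000073678.5), which trims the lipid of glycosylphosphatidylinositol anchors, were lower in all 8 MASH diet libraries than in CD. Rdh9 CPM was 157, 144, 156 and 128 in CD, compared with 88.9, 83.8, 72.4 and 70.6 in MD and 32.6, 58.3, 41.4 and 60.4 in MD+CA. The 3 groups did not overlap, with MD between CD and MD+CA. Its log2 fold change was -1.25 ± 0.18 (adjusted p = 0.0135), and MD+CA differed from MD by -0.71 (adjusted p = 0.0738). The call was lost without CD replicate 1 (adjusted p = 0.055), CD replicate 2 (0.0524) or CD replicate 4 (0.069). Pgap1 CPM was 24.7, 27.0, 25.8 and 24.3 in CD, against 11.8, 6.31, 11.2 and 11.4 in MD and 11.6, 16.7, 12.7 and 17.3 in MD+CA, with CD wholly above and MD replicate 2 the lowest of all 12. Its log2 fold change was -1.06 ± 0.18 (adjusted p = 0.0295), and the call held in 3 of 12 fits with 1 library left out.

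Pdzk1ip1, Cnmd and Nat8f7 passed as a diet effect but differed between the diet groups, so their mean describes neither group well. Pdzk1ip1 (ENSMUSG00000028716.16) encodes a small membrane protein that binds PDZ domains. Its CPM was 6.82, 8.51, 4.02 and 9.46 in CD, compared with 4.06, 2.65, 3.46 and 4.38 in MD and 1.29, 0.818, 1.52 and 1.04 in MD+CA. MD overlapped CD while MD+CA lay below both, and the log2 fold change of -1.81 ± 0.25 (adjusted p = 0.0135) combined -0.98 in MD with -2.64 in MD+CA (difference -1.66, adjusted p = 0.0198). Cnmd (ENSMUSG00000022025.14), known as the cartilage glycoprotein chondromodulin, had CPM of 7.43, 13.7, 6.53 and 9.66 in CD, against 6.24, 3.46, 4.73 and 4.06 in MD and 0.367, 1.80, 1.39 and 2.25 in MD+CA. CD lay wholly above the MASH diet, by a narrow gap to MD replicate 1, and the log2 fold change of -1.83 ± 0.31 (adjusted p = 0.0318) combined -1.0 with -2.66 (difference -1.66, adjusted p = 0.0413). Nat8f7 (ENSMUSG00000089694.3), of an N-acetyltransferase family with similar copies, had 0 reads in 4 of 4 MD+CA libraries. Its mean CPM was 0.989 in CD and 0.786 in MD, at least 3.41-fold and 2.71-fold higher than MD+CA when MD+CA is set at 3 counts per library (mean floor 0.29 CPM). In MD it did not pass, with a log2 fold change of -0.32 (adjusted p = 0.713), and is no diet change shared with and without the compound.

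Another 4 lower genes rested on few reads or on wide CD values. Hsd3b5 (ENSMUSG00000038092.7), a 3-ketosteroid reductase known for higher expression in male mouse liver, had CPM of 1.69, 6.08, 2.68 and 2.57 in CD, compared with 0, 0.407, 0 and 0 in MD and 0, 0.246, 0.506 and 0.519 in MD+CA. All 8 MASH diet libraries were below CD, 4 of them at 0, with a fitted log2 fold change of -4.22 ± 0.66 (adjusted p = 0.0243). Rims4 (ENSMUSG00000035226.6), known from presynaptic active zones, was 2.03, 4.86, 1.25 and 2.29 CPM in CD, against 0.21, 0.407, 0.0751 and 0.0796 in MD and 0.551, 0.818, 0.506 and 1.04 in MD+CA, also without overlap (-2.77 ± 0.43, adjusted p = 0.0243). Plekhd1 (ENSMUSG00000066438.7) was 1.08, 11, 1.25 and 3.62 CPM in CD and at most 0.751 in the MASH diet, with 4 of 8 libraries at 0. Its CD replicate 2 was far above the other 3, and the fitted change was -5.09 ± 0.81 (adjusted p = 0.0244). Acp3 (ENSMUSG00000032561.16), an acid phosphatase, was 17.0, 46.5, 9.75 and 16.8 CPM in CD, compared with 3.57, 1.73, 3.23 and 2.79 in MD and 2.30, 3.60, 8.99 and 12.2 in MD+CA. MD+CA replicate 4 overlapped CD replicate 3, and the log2 fold change was -2.35 ± 0.41 (adjusted p = 0.0426).

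**Figure D3:**
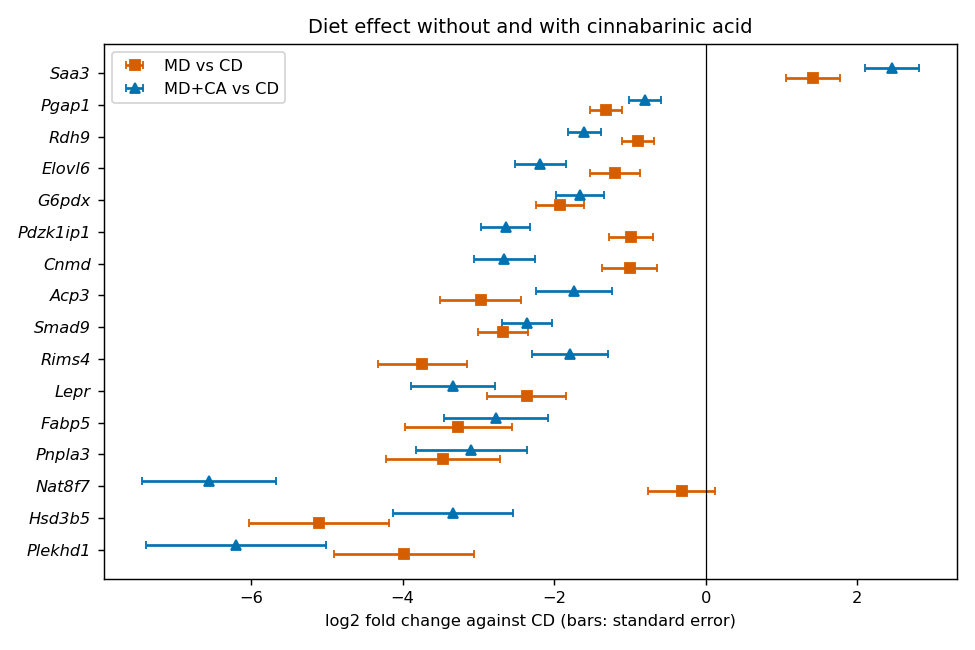
Log2 fold change against CD (horizontal axis) of the 16 genes, with squares for MD and triangles for MD+CA and bars for the standard error. Smad9 and G6pdx have similar values in both groups, Pdzk1ip1 and Cnmd are lower in MD+CA than in MD, and Nat8f7 is near 0 in MD. The fitted value of Nat8f7 in MD+CA rests on libraries at 0 and is no bound.

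Saa3 was the only gene of the 16 that rose. Saa3 (ENSMUSG00000040026.9) is the serum amyloid A that macrophages and fat cells make in inflammation. Its CPM was 0.743, 1.82, 1.34 and 0.695 in CD, against 4.41, 2.75, 2.33 and 2.55 in MD and 7.44, 5.73, 7.22 and 4.58 in MD+CA. Saa3 reads were few in CD, where 3 counts equal 0.203 to 0.304 CPM. All 8 MASH diet libraries exceeded the highest CD library, and MD+CA lay above MD. The log2 fold change was 1.94 ± 0.32 (adjusted p = 0.0295), with 1.42 in MD and 2.46 in MD+CA (difference 1.04, adjusted p = 0.0816). The call held in 4 of 12 fits with 1 library left out, with adjusted p between 0.0229 and 0.136.

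Among the other acute phase genes, MD+CA replicate 3 stood far above the rest in several. Of 21 tested, 1 passed and 7 had an unadjusted p under 0.05, all 7 upward. Such a p upward was reached by 6.22% of all genes, and 0.00734% passed higher. The list median was 0.49, made of 0.04 in MD and 1.14 in MD+CA, and it was 0.07 without MD+CA replicate 3. Saa4, a constitutive serum amyloid A, had CPM of 142, 144, 119 and 136 in CD, compared with 326, 269, 278 and 297 in MD and 299, 179.7, 674 and 196 in MD+CA. It lay above CD in all 8 libraries at 1.22 ± 0.31 but did not pass (adjusted p = 0.162). Saa2, a liver-made acute phase reactant, ranged from 18.8 to 14024 CPM on the MASH diet, and the neutrophil and hepatocyte siderophore-binder Lcn2 from 6.01 to 562, with the highest value of each in MD+CA replicate 3. Saa1 and Saa2 are nearly identical and draw on reads that were split between the pair by estimation.

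Markers of resident Kupffer cells had mostly positive log2 fold changes, and 0 of the 16 tested passed. Of these, 14 had a positive log2 fold change and 10 an unadjusted p under 0.05 upward, with a median of 0.53, where 6.22% of all genes had such a p upward and 7293 of 13631 a positive sign. That median combined 0.06 in MD with 1.05 in MD+CA. The summed CPM of the list ranged from 360 to 417 in CD, while it ran from 267 to 458 in MD and from 550.4 to 987 in MD+CA. MD overlapped CD and MD+CA did not. C1qb, a complement subunit made by Kupffer cells, had CPM of 13.4, 9.22, 13.5 and 14.2 in CD, against 11.8, 13.8, 18.3 and 20.1 in MD and 33.4, 25.9, 40.8 and 21.7 in MD+CA (0.81 ± 0.21, adjusted p = 0.179). Marco, a scavenger receptor, was near CD in MD and higher in MD+CA, with log2 fold changes of 0.30 and 3.42 and a difference of 3.12 (adjusted p = 0.0198).

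Markers of recruited and lipid-associated macrophages had a median of 0.73 over 16 tested, with 0.39 in MD and 0.86 in MD+CA. Their summed CPM went another way, from 1047 to 1665 in CD, 584 to 884 in MD and 752 to 1256 in MD+CA. By that sum MD lay wholly below CD, and Fabp5 alone had 369.5 to 1058 CPM in CD. An unadjusted p under 0.05 was reached by 8 markers upward and by 2 downward, Fabp5 and Cd9, a tetraspanin, and Fabp5 was the only member that passed. Such a p was reached by 6.22% of all genes upward and 5.33% downward. Cd68, a lysosomal glycoprotein of macrophages, had CPM of 2.50, 1.82, 2.41 and 2.92 in CD, compared with 2.59, 3.67, 3.98 and 3.82 in MD and 5.33, 7.28, 7.60 and 6.48 in MD+CA. Only MD replicate 1 overlapped CD, and the log2 fold change was 0.99 ± 0.22 (adjusted p = 0.108). Tyrobp, the signalling adaptor of TREM2, was at 1.03 ± 0.26 (adjusted p = 0.161). Trem2 itself had too few reads to be tested.

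Cytokine, chemokine and adhesion genes had positive medians in both diet groups. Of 18 tested, 0 passed and 8 had an unadjusted p under 0.05 upward and 1 downward, where 6.22% and 5.33% of all genes did so. The median was 0.60, with 0.47 in MD and 0.84 in MD+CA. The list's median per library, relative to CD, lay between -0.10 and -0.02 in CD, against a span between 0.13 and 0.52 in MD and between 0.23 and 0.79 in MD+CA. All 8 MASH diet libraries lay above all 4 CD libraries on that measure, which was picked out among 50 lists after the values were seen. Cxcl16, a membrane-bound chemokine, had CPM of 8.51, 6.99, 7.60 and 7.79 in CD, against 10.6, 10.4, 9.99 and 9.31 in MD and 11.2, 14.3, 10.6 and 9.94 in MD+CA. It was above CD in all 8 libraries by a small amount, 0.48 ± 0.15 (adjusted p = 0.253). Icam1, an adhesion molecule, was at 0.72 ± 0.22 (adjusted p = 0.244).

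Antigen presentation genes were positive in 16 of 16 tested, where 7293 of all 13631 genes were. Of the 16, 7 had an unadjusted p under 0.05, against 6.22% upward over all genes, and 0 passed. Their median was 0.58, with 0.28 in MD and 0.86 in MD+CA, and it was 0.38 without MD+CA replicate 2. Per library, the list's median relative to CD was 1.44 in that replicate against 0.44, 0.11 and 0.34 in MD+CA replicates 1, 3 and 4. Cd74, the invariant chain of class II molecules, was at 0.77 ± 0.27 and H2-DMb1, which loads peptides on class II, at 1.04 ± 0.34 (adjusted p = 0.296 and 0.253). Psmb9, a subunit of the immunoproteasome, lay above CD in all 8 libraries at 0.82 ± 0.29 (adjusted p = 0.299), and MD+CA replicate 2 had the highest level of both Cd74 and Psmb9. Interferon-stimulated genes had a median of 0.57 over 31 tested, made of 0.05 in MD and 0.83 in MD+CA, with 10 at an unadjusted p under 0.05 upward and 0 passing. Markers of T and NK cells were thinly covered, with 6 of 17 tested, and of 12 neutrophil markers 3 were tested. The tested T and NK cell markers had a summed CPM from 5.99 to 8.90 in CD, 3.18 to 11.8 in MD and 7.85 to 21.2 in MD+CA, and 0 of the 6 had an unadjusted p under 0.05. The 3 neutrophil markers summed to between 3.34 and 9.93 CPM in CD, 11.5 and 14.7 in MD and 12.1 and 579 in MD+CA. An unadjusted p under 0.05 upward was reached by 2 of 3. Lcn2, also made by hepatocytes, is 1 of those 2 and made up much of the sums. It had 6.01 to 11.9 CPM in MD and 562 in MD+CA replicate 3. Per library, the median of the 3 markers relative to CD was highest in MD+CA replicate 3 at 2.94. The cytokine list was at 0.23 there, the lowest of the MD+CA libraries. The part of these cell types in the results was not tested.

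**Figure D4:**
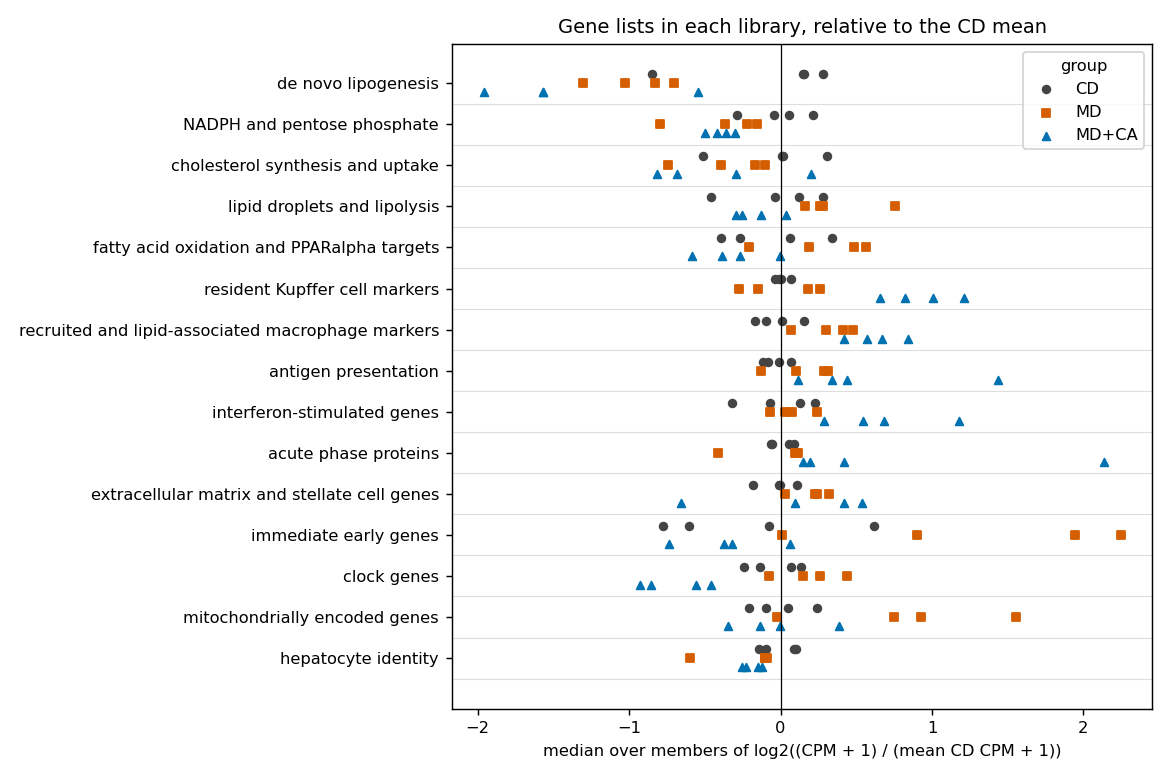
Median over the members of each gene list of log2((CPM + 1) / (mean CD CPM + 1)) on the horizontal axis, with 1 point per library (circles CD, squares MD, triangles MD+CA) for 15 of the lists. De novo lipogenesis lies to the left in 8 MASH diet libraries and in CD replicate 3 at -0.85. The 4 MD+CA points of Kupffer cell markers lie to the right of every CD and MD point.

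Matrix genes had small positive medians in both diet groups. Of 38 tested genes of extracellular matrix and stellate cells 31 were positive, 6 had an unadjusted p under 0.05 upward and 0 passed. Of all genes 7293 of 13631 were positive and 6.22% had such a p upward. The list median was 0.30, with 0.31 in MD and 0.25 in MD+CA. It was 0.16 without MD+CA replicate 4 and 0.18 without CD replicate 2. The summed CPM of the list went another way, from 2038.5 to 2238.6 in CD, 1203 to 1896 in MD and 1709 to 2820 in MD+CA. By that sum MD lay wholly below CD, while MD+CA spanned it. Per library, the median relative to CD was -0.65 in MD+CA replicate 3 and between 0.10 and 0.54 in the other 3 of that group. Col1a1, the main chain of scar collagen, had CPM of 4.53, 2.74, 3.31 and 3.62 in CD, compared with 8.90, 6.31, 4.96 and 12.7 in MD and 6.61, 4.09, 1.52 and 9.17 in MD+CA. MD lay above CD while MD+CA spanned it, with MD+CA replicate 3 the lowest of all 12, and the log2 fold change was 0.90 ± 0.37 (adjusted p = 0.376). Dcn, a matrix proteoglycan, was at 0.66 ± 0.21 (adjusted p = 0.253).

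Several genes had higher levels in all 8 MASH diet libraries than in CD without passing the test. Ucp2, a mitochondrial carrier abundant in macrophages and induced in fatty hepatocytes, had CPM of 19.5, 14.0, 17.7 and 21.8 in CD, against 46.4, 41.0, 28.8 and 60.2 in MD and 33.7, 27.2, 34.7 and 32.5 in MD+CA. Its log2 fold change was 1.04 ± 0.20 (adjusted p = 0.0583), and it passed without MD replicate 3 (0.0363). Hk2, a hexokinase scarce in healthy hepatocytes, ranged from 1.65 to 6.38 CPM on the MASH diet against 0.675, 1.11, 0.984 and 1.32 in CD (1.70 ± 0.37, adjusted p = 0.0993). Also wholly above CD were Actg1, a cytoskeletal actin, at 1.09, Sirpa, a myeloid receptor for CD47, at 0.83 and Srxn1, a sulfiredoxin induced by NRF2, at 0.71 (adjusted p = 0.0879, 0.0879 and 0.138). Wholly below CD without passing were Ugcg, the glucosylceramide synthase, at -0.88, Gpc6, a heparan sulfate proteoglycan, at -2.47, Cyp2c40, a cytochrome P450 of a family with similar copies, at -1.09 and Slc2a2, the hepatocyte glucose transporter, at -0.73 (adjusted p = 0.0564, 0.0508, 0.118 and 0.246).

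Several liver functions had medians over both diet groups near that of all genes. The median was 0.04 over 27 genes of fatty acid oxidation and PPARalpha targets, -0.03 over 23 of bile acid synthesis and transport, -0.01 over 36 nuclear-encoded respiratory chain genes and 0.00 over 27 lysosomal genes, with 0 passing in each. Hepatocyte identity genes lay lower, at -0.15 over 21, with 0 passing and 14 negative, where 6338 of all 13631 genes were. Per library, their median relative to CD was -0.60 to -0.09 on the MASH diet and -0.14 to 0.10 in CD, so the groups overlapped. The median of fatty acid oxidation combined 0.27 in MD with -0.15 in MD+CA, and 2 of its 27 genes differed between them. Cyp7a1, the rate-limiting enzyme of bile acid synthesis, was at 0.27 ± 0.36 (95% interval -0.50 to 1.03). Cyp8b1, which makes cholic acid, was at 1.39 ± 0.43 (adjusted p = 0.245). Ahr, whose floxed alleles all groups carry, was at 0.23 ± 0.21 (95% interval -0.22 to 0.69), and its target Cyp1a1 had at most 6 reads in any library and was not tested. Stc2, a secreted glycoprotein that earlier results of these data had picked out, had too few reads as well.

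Some lists had members that differed between MD+CA and MD, where 2.71% of all genes did. Among these members were 7 of 16 immediate early genes, whose median was 1.55 in MD and -0.40 in MD+CA, and 10 of 19 clock genes (0.37 and -0.70). So were 5 of 19 endoplasmic reticulum chaperones (-0.51 and 0.34), 5 of 16 Kupffer cell markers (0.06 and 1.05) and 4 of 16 lipid droplet genes (0.49 and -0.12). Genes of fructose and glucose metabolism had 4 of 26 and interferon-stimulated genes 4 of 31. Other lists had fewer. Immediate early genes were uneven within MD, with medians relative to CD of 1.95, 2.25, 0.90 and 0.01 per library, the last within the CD range. Mitochondrially encoded genes had medians of 0.92 in MD and 0.04 in MD+CA, with 0 of 13 differing, and MD replicate 3 was at -0.02 against 0.93, 1.55 and 0.75 in the other 3. Gdf15, a stress-induced hormone, had CPM of 4.59, 1.72, 3.93 and 5.35 in CD, against 27.0, 34.4, 17.5 and 10.3 in MD and 4.23, 2.54, 5.44 and 4.76 in MD+CA. MD lay wholly above CD while MD+CA overlapped it, and MD+CA differed from MD by -2.40 (adjusted p = 0.0118). Bmal1, a core clock activator, was at -0.57 in MD and 2.75 in MD+CA, and Per3, a clock repressor, at 0.67 and -2.89 (differences 3.31 and -3.56, adjusted p = 0.00136 for each). Acot3, a peroxisomal thioesterase, was at 0.42 and -2.53 (difference -2.95, adjusted p = 0.0171). The means over both diet groups of such genes are no change shared with and without the compound.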

How the data were processed

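Poly(A)-selected liver RNA from 12 libraries was analysed from deposited transcript tables of 147556 transcripts. Per the submitters' processing notes, the tools were fastp, Salmon 1.10.3 and DESeq2 and the build was GRCm39. The sources used here give no options, strand setting or annotation release. Estimated counts were deposited as the expected number of reads per transcript, without normalization, per the file headers. The deposited TPM values, scaled by the authors' quantification for length and depth, and the effective lengths served only for the transcript length offset and the fragment length allowance.

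Expected counts were summed per gene, rounded, filtered with edgeR's filterByExpr (minimum count 10) and TMM-scaled. A quasi-likelihood model in edgeR 4.0.16 with 1 mean per group was fitted over the 12 libraries, which left 9 residual degrees of freedom and a common biological coefficient of variation of 0.308. The contrast was the mean of MD and MD+CA less CD. P-values were Benjamini-Hochberg adjusted over all 13631 genes and called under 0.05. The standard error of a log2 fold change is its size over the square root of F, and intervals are 95% intervals. A gene counts as lying wholly above or below CD when no library overlaps in TMM-scaled CPM. Alternatives used DESeq2 1.42.0, limma 3.58.1, R 4.3.3, Python 3.11.15 and pandas 2.3.3.

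The members, gene lists and tests were chosen with earlier results of these data known. Named genes were taken by rule: up to 12 changes in each direction among passing, non-overlapping protein-coding genes of average log2 CPM of at least 1 (8 genes met this), the 4 members of each list with the smallest p, and 10 genes from earlier results. Not every gene taken by the rule is described. The rest of the 16 passing genes, further lipogenic genes and genes near the threshold were named after their values were seen.

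On simulated counts for this comparison edgeR recovered 44, 80, 98 and 94% of genes changed by 2, 4, 8 and 16 fold, with 3.07% of calls false, against 11.2% for DESeq2. The simulation used edgeR's own estimates of spread, so it does not rank the tools on these libraries. It also planted many more changed genes than the 16 that passed, so recovery in these libraries may be lower. No libraries agreed within sampling noise. Replicate numbers gave correlations of deviations between -0.0913 and 0.419 for same-numbered libraries and were not treated as pairs. Differently numbered libraries ran from -0.458 to 0.373. Among same-numbered libraries only CD and MD replicate 2 correlated negatively, while most differently numbered pairs did. A component shared by replicate number was not modelled in the main fit. Promoter sequences are from RefSeq on GRCm38.p6, another build than that of the tables, and were matched by symbol. Values of a few genes are not reported here.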

Additional observations from a re-analysis of the deposited data

Results flagged for a closer look

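In 25 of 324 groups of 4 values, taken over the named genes that were tested, 1 library lay far from the other 3 (its gap to the nearest value over the range exceeded 0.829). Chance gives about 1 in 20, many of the genes were named for their values, and nothing is read from the number.

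Among genes that passed, the values that stood apart were 6.31 CPM of Pgap1 in MD, 301 CPM of Fabp5 in MD+CA and 0.407 CPM of Hsd3b5 in MD, the only MD library with reads of that gene. Among lipogenic genes they were 127 CPM of Me1 in CD, 62.6 CPM of Acss2 in CD, 112 CPM of Acss2 in MD+CA and 339 CPM of Mlxipl in MD+CA, and the low CD values belong to CD replicate 3. Among acute phase genes they were 10682 CPM of Saa1, 14024 CPM of Saa2 and 562 CPM of Lcn2, all in MD+CA replicate 3. Among immune genes they were 9.22 CPM of C1qb in CD, 7.5 CPM of C1qc in CD, 18.3 CPM of C1qc in MD+CA, 31.5 CPM of Marco in MD, 63.4 CPM of Psmb9 in MD+CA and 10.1 CPM of Irf8 in MD. Among transporters and bile acid genes they were 18.2 CPM of Slco1a1 in CD, 97.6 CPM of Slc10a1 in MD and 11.3 CPM of Cyp8b1 in CD. The remaining ones were 69.0 CPM of Ppp1r3g, a glycogen-targeting phosphatase subunit, in CD, 10.0 CPM of Id4 in MD+CA, 0.810 CPM of the lipid droplet protein Plin4 in CD and 43.3 CPM in MD, 62.5 CPM of the choline kinase Chka in MD and 91.1 CPM of Per3 in MD.

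For 15 of the named genes that were tested the diet effect differed between MD+CA and MD (edgeR's quasi-likelihood test, Benjamini-Hochberg adjusted p under 0.05), against 2.71% of all genes. Among the genes that passed, the log2 difference of MD+CA from MD was -1.66 for Cnmd, -1.66 for Pdzk1ip1 and -6.24 for Nat8f7. Among lipid genes it was -2.42 for Fitm1 and -1.61 for G0s2, both of lipid droplets, 1.72 for the lipase Lpl and -2.95 for Acot3. Among genes of sugar handling it was -1.85 for the fructose transporter Slc2a5 and -5.50 for Ppp1r3g. The others were -2.40 for Gdf15, 3.12 for Marco, -2.61 for Jun, -2.92 for Btg2, -3.56 for Per3 and 3.31 for Bmal1.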

How the results depend on the processing

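Counts of passing genes depended on the tool, the filter and single libraries, while the signs of the 16 genes held in every setting run. In MASH diet vs CD, where 16 genes passed, 1 of them higher, DESeq2 gave 192 with 84 higher, limma voom 77 with 26, no low-count filter 203 with 84, protein-coding genes only 23 with 2, a transcript length offset 15 with 2, the 8 libraries as 1 group 2 with 0, a fragment length covariate 30 with 4, and leaving out MD replicates 1, 2 and 4 gave 1 with 0. The last fit assumes that the lone MD library varies like the rest, and the gene it called was none of the 16. It and the covariate were chosen after seeing the data. Of the 16 genes, 16 also passed with DESeq2 and without the filter, 14 with voom, 15 with the covariate and 2 with the libraries as 1 group. Share of calls that were higher rose from 6.25% to 43.75% with DESeq2, 33.8% with voom and 41.4% without the filter, where 27133 genes were tested. Passing genes with no overlap, 1 higher and 10 lower, became 38 and 47 with DESeq2, 17 and 26 with voom, 17 and 31 without the filter, 2 and 15 for protein-coding genes, 0 and 2 for the libraries as 1 group, and 0 and 0 without the 3 MD libraries. Genes passing with MD and with MD+CA, 2 here, became 53 with DESeq2, 24 with voom, 53 without the filter, 1 with the length offset and 0 without the 3 MD libraries. Leaving out 1 library gave 1 to 50 genes, 0 to 6 higher and 1 to 44 lower, 0 to 5 and 1 to 31 with no overlap, and 0 to 2 passing in both. With the replicate number as a block, 20 genes passed, 4 higher and 16 lower, 12 of the 16 among them, without Pgap1 (adjusted p = 0.0526), Cnmd (0.0575), Acp3 (0.0881) and Nat8f7 (0.0922), and 2 higher and 8 lower had no overlap. Same-numbered libraries did not all correlate best with each other, though only CD and MD replicate 2 correlated negatively among them. The cause of the differences between fits was not tested.

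Srebf1, near 0, changed sign with upper-quartile scaling (0.0467) and the replicate block (0.00706) and ranged from -0.189 to 0.104 with 1 library left out. Xist changed sign with upper-quartile scaling (0.0163), the length offset (0.281) and the fragment length covariate (0.00798), and ranged from -0.0927 to 0.0193 with 1 library left out. The share of reads in the 10 most abundant genes, MASH diet less CD, ranged from -1.91 to 0.425 percentage points likewise. With 4 libraries a group and this depth, 44% of simulated 2-fold changes were recovered, so genes that did not pass may have changed. Many more changed genes were planted there than the 16 that passed, so recovery in these libraries may be lower.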
